A study of Canis lupus familiaris with 33 samples.

Results

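The genes described here are PDGFRA, KIT and KDR, which lie side by side on dog chromosome 13 and encode receptor tyrosine kinases. They are the rows of the deposited gene table on chromosome 13 whose lowest start falls between 46.5 and 47.6 Mb and whose merged exons number at least 20. The rule gave 3 of the 30951 genes in the table, and the other 8 of the 11 rows in that window had at most 6 exons. RNA was sequenced from 33 brain libraries of dogs to compare oligodendroglioma, a tumour of glial cells, with healthy brain, and archived tissue with frozen tissue.

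The 4 groups were tumours kept as formalin-fixed paraffin-embedded (FFPE) blocks (11 dogs), FFPE control brain (10 dogs), fresh-frozen tumours (6 dogs) and fresh-frozen control brain (6 dogs). Tumours were labelled grade III apart from those of dogs 51234 and 60679, which were labelled grade II. FFPE tumours came from 6 French Bulldogs, 4 Boxers and 1 Pomerian, and FFPE controls from 5 French Bulldogs, 4 Boxers and 1 Bolonka Swetna. Fresh-frozen tumours came from 3 French Bulldogs, a Border Terrier, a Pomerian and a Boxer. Fresh-frozen controls came from 2 French Bulldogs, a Hovawart, a Mongrel, a Berner sennenhund and a Bolonka Swetna. Stated ages were 4.7 to 12 years in FFPE tumours, 2 to 8 years in FFPE controls, 4.7 to 10 years in fresh-frozen tumours and 2.8 to 10.2 years in fresh-frozen controls, and some dogs had none. All tissue was taken at necropsy, no treatment is labelled, and 8 dogs gave a library of each kind. The samples are bulk tissue, so more cells of a type and more RNA per cell cannot be told apart. The defining markers of tumour and brain were not analysed here, because the table gives identifiers without gene names.

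The names of the 3 genes rest on position and structure. In the CanFam3.1 assembly the row taken as PDGFRA, ENSCAFG00000002057, spans chr13:46730703-46773278 on the plus strand, with 25 exons and 4778 bp of exon. The row taken as KIT, ENSCAFG00000002065, spans chr13:47108504-47190029 on the plus strand, with 22 exons and 3191 bp of exon. The row taken as KDR, ENSCAFG00000002079, spans chr13:47442764-47485042 on the minus strand, with 30 exons and 4633 bp of exon. Their spans of 42576, 81526 and 42279 bp stand in the same order as PDGFRA (46055 bp), KIT (81579 bp) and KDR (41642 bp) in the RefSeq annotation of another dog assembly, UU_Cfam_GSD_1.0. The KIT and KDR starts lie 334260 bp apart in the table and 335909 bp apart in RefSeq. The PDGFRA and KIT starts lie 377801 bp apart in the table and 452279 bp apart in RefSeq, so this distance differs between the assemblies. None of the 3 overlaps another annotated gene on either strand.

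PDGFRA is the receptor for platelet-derived growth factors. In the brain it is a mark of oligodendrocyte precursor cells, whose division its ligands drive, and in human gliomas it is a known target of gene amplification. KIT is the receptor for stem cell factor and is known from mast cells, melanocytes and blood stem cells, and in the brain it is also made by some neurons. KDR, also called VEGFR2, is the main signalling receptor for vascular endothelial growth factor on endothelial cells, and drives the sprouting of vessels. All 3 are membrane receptors that dimerise on binding their ligand and phosphorylate tyrosines inside the cell.

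Levels are given as CPM, the count of a gene per mega-count of its library, after TMM scaling, which evens out library composition. Total counts ran from 1752162 to 12501029 in FFPE tumours, from 406406 to 32584840 in FFPE controls, from 9765907 to 25168080 in fresh-frozen tumours and from 15255966 to 26726025 in fresh-frozen controls. FFPE control dog 50315 was the shallowest library and held 35 PDGFRA, 10 KIT and 9 KDR counts, so its KIT value of 29.6 CPM has a 95% Poisson interval of 14.2 to 54.4 CPM, which covers counting error only. In every other library each of the 3 genes held at least 35 counts. The FFPE libraries of dogs 44331 and 61478 lay at the edge of their groups on the side of the other tissue. A library score was taken as the mean level of the 2620 genes higher in fresh-frozen tumours minus that of the 1770 genes lower in them, chromosome 13 left out and each gene centred over the FFPE libraries. The library labelled FFPE tumour of dog 44331 scored -0.65, and the other FFPE tumours ran from -0.22 to 2.35. The library labelled FFPE control of dog 61478 scored -0.09, and the other FFPE controls ran from -1.95 to -0.26. The score did not split the labels cleanly, as tumour dog 60127 (-0.22) also lay below control dog 61478. FFPE results are given with and without dogs 44331 and 61478, a setting that was not planned beforehand. For PDGFRA these were the lowest FFPE tumour and the highest FFPE control. Leaving them out therefore raises its difference by the choice itself.

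PDGFRA was far higher in tumours than in control brain in both kinds of tissue. In FFPE tissue it was found at 97.1 to 2493 CPM in tumours (median 1275, n = 11), against 32.7 to 768 CPM in controls (median 59.2, n = 10).  Of the 11 FFPE tumours, 9 lay above every control, and the others were those of dogs 44331 (97.1 CPM) and 60127 (474 CPM). PDGFRA was thus not among the 0.142% of genes for which all FFPE tumours lay above every control. The share of genes with at least 9 such tumours was not taken. The high control was that of dog 61478 at 768 CPM, and the next control, dog 50315, stood at 104 CPM. The log2 fold change was 3.15 ± 0.60 (SE; edgeR adjusted p = 0.00184), or 8.85-fold, rank 12 from the highest among 13338 genes tested. Of all genes tested in FFPE tissue, 10.1% were called higher in tumours and 11.1% lower, 21.1% in all. Without dog 61478 the log2 fold change was 4.29 (edgeR adjusted p = 3.99e-06), and without dogs 44331 and 61478 it was 4.42 ± 0.35 (SE; edgeR adjusted p = 7.99e-08). In the dogs that also gave a fresh-frozen library it was 4.38 ± 0.64 (SE; edgeR adjusted p = 0.0736), a setting in which 1 gene in all was called. In the other FFPE dogs, which include both 44331 and 61478, it was 2.73 ± 0.78 (edgeR adjusted p = 0.0373). The difference between these sets of dogs was not tested.

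In fresh-frozen tissue PDGFRA reached 379 CPM in the tumour of dog 60636, 1879 in 60127, 2169 in 60679, 2333 in 60749, 2519 in 60631 and 5371 CPM in 60461. Fresh-frozen controls held 42.5 CPM in dog 60460, 54.5 in 60516, 59.8 in 60459, 61.9 in 60462, 72.7 in 60126 and 116 CPM in 60629. Every tumour therefore lay above every control, as was so for 6.43% of 14684 genes compared in this way. The log2 fold change was 5.21 ± 0.55 (SE; edgeR adjusted p = 0.000623), or 36.9-fold, rank 22 from the highest of 15057 genes tested. In this tissue 18.3% of genes were called higher in tumours and 12.2% lower, 30.5% in all. In the tumour of dog 60461, PDGFRA took 0.565% of all counts.

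**Figure D1:**
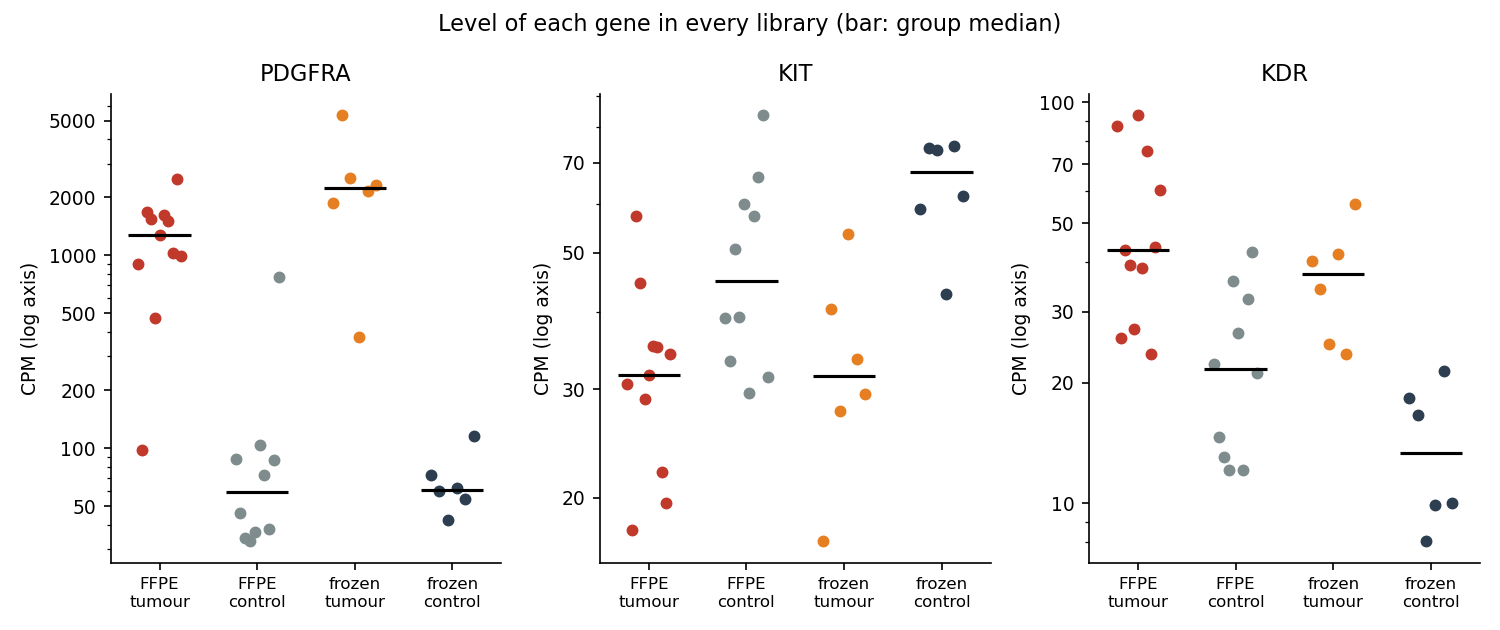
CPM of PDGFRA, KIT and KDR (vertical log axes) in each library of the 4 groups, 1 point per library, with a bar at the group median. PDGFRA medians were 1275 CPM in FFPE tumours and 59.2 CPM in FFPE controls, with 1 control at 768 CPM, while KIT points sit mostly lower and KDR points mostly higher in tumours. Tumours and controls overlap for PDGFRA, KIT and KDR in FFPE tissue, and for KIT in fresh-frozen tissue.

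KIT moved the other way and by less. In FFPE tissue it stood at 17.7 to 57.3 CPM in tumours (median 31.7, n = 11), against 29.6 to 83.7 CPM in controls (median 45.0, n = 10). The groups overlapped, with 4 of 11 tumours below every control. KIT was thus not among the 0.247% of genes for which all FFPE tumours lay below every control. The share of genes with at least 4 such tumours was not taken. The log2 fold change was -0.68 ± 0.22 (SE; edgeR adjusted p = 0.0315). The FFPE call for KIT was not kept without any 1 of 7 libraries. The adjusted p from edgeR was 0.0592 without tumour dog 60177 (log2 fold change -0.66), 0.0544 without tumour dog 60636 (-0.66) and 0.0566 without tumour dog 60749 (-0.62). It was 0.0513 without control dog 45726 (-0.65), 0.0682 without 50276 (-0.62), 0.0705 without 60460 (-0.61) and 0.0782 without 60462 (-0.55). It was also not kept without a filter on low counts (edgeR adjusted p = 0.0800), without grade II tumours (0.0560) or with libraries thinned to the shallowest (0.887). Leaving out both dogs 44331 and 61478 gave -0.68 (edgeR adjusted p = 0.0272). The FFPE value was -1.34 ± 0.31 in the dogs that also gave a fresh-frozen library (SE; edgeR adjusted p = 0.119) and -0.24 ± 0.28 in the other FFPE dogs (adjusted p = 0.605), a difference that was not tested.

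In fresh-frozen tissue KIT stood at 16.99 CPM in the tumour of dog 60127, 27.6 in 60631, 29.5 in 60749, 33.6 in 60679, 40.5 in 60461 and 53.6 CPM in 60636. Fresh-frozen controls held 42.8 CPM in dog 60462, 59.0 in 60126, 61.9 in 60629, 73.5 in 60460, 74.1 in 60459 and 74.5 CPM in 60516. The tumour of dog 60636 was the 1 tumour that lay above a control, and the other 5 lay below all of them. KIT was thus not among the 5.16% of genes for which every tumour lay below every control. The share of genes with at least 5 such tumours was not taken. The log2 fold change was -0.91 ± 0.25 (SE; edgeR adjusted p = 0.0166), a level 1.87-fold lower in tumours. KIT was thus lower in tumours in both tissues, the only one of the 3 genes to be so.

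KDR rose in tumours in both tissues. In FFPE tissue it stood at 23.5 to 93.1 CPM in tumours (median 42.8, n = 11), against 12.1 to 42.3 CPM in controls (median 21.6, n = 10). Of the 11 tumours, 6 lay above every control, and the share of all genes with such a count was not taken. The log2 fold change was 1.06 ± 0.30 (SE; edgeR adjusted p = 0.0168), or 2.08-fold, and 1.11 ± 0.32 without dogs 44331 and 61478 (edgeR adjusted p = 0.0143). In dogs that also gave a fresh-frozen library it was 0.48 ± 0.48 (edgeR adjusted p = 0.628) and in the other FFPE dogs 1.44 ± 0.35 (adjusted p = 0.0208), a difference that was not tested. With all FFPE libraries thinned to the shallowest it was 1.07 ± 0.80 (adjusted p = 0.643).

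In fresh-frozen tissue KDR held 23.6 CPM in the tumour of dog 60679, 25.02 in 60631, 34.3 in 60461, 40.2 in 60127, 41.8 in 60636 and 55.8 CPM in 60749. Fresh-frozen controls held 8.03 CPM in dog 60460, 9.89 in 60462, 10.0 in 60629, 16.6 in 60459, 18.3 in 60126 and 21.3 CPM in 60516. The groups did not overlap, the share of genes with every tumour above every control being the 6.43% given above. The log2 fold change was 1.43 ± 0.30 (SE; edgeR adjusted p = 0.00578), or 2.69-fold. Leaving out dogs 60126, 60127, 60461 and 60462, whose fresh-frozen libraries earlier work on these data had set apart, gave 1.33 ± 0.41 (edgeR adjusted p = 0.0561).

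Age was not balanced between tumours and controls. Control dog 61478 and tumour dog 60749, each the highest of its FFPE group for PDGFRA, had no stated age and did not enter the FFPE age fits. Without dog 61478 alone, and with no age in the fit, the FFPE log2 fold change of PDGFRA was 4.29. Among FFPE libraries with a stated age, with age in the fit, the log2 fold change of PDGFRA was 4.22 (edgeR adjusted p = 0.0126), that of KIT -0.93 (adjusted p = 0.218) and that of KDR 0.96 (adjusted p = 0.346). In the same libraries without age in the fit the values were 3.94 (adjusted p = 0.00430), -0.80 (0.127) and 1.03 (0.166). The fresh-frozen KIT call was not kept in the libraries with a stated age either, at -0.79 with age in the fit (edgeR adjusted p = 0.106) and -0.84 without it (0.0708). PDGFRA in the grade II tumours stood at 1544 CPM in FFPE dog 51234, 1030 in FFPE dog 60679 and 2169 CPM in fresh-frozen dog 60679, within the range of the grade III tumours.

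Scaled by exonic length, PDGFRA stood far above KIT and KDR in tumours, and near KIT in FFPE controls. Median levels in FFPE tumours were 267 CPM per kb of exon for PDGFRA, 9.94 for KIT and 9.23 for KDR, against 12.4, 14.1 and 4.67 CPM per kb in FFPE controls. In fresh-frozen tumours they were 471, 9.89 and 8.05 CPM per kb, against 12.7, 21.2 and 2.88 CPM per kb in fresh-frozen controls. By its median CPM per kb, PDGFRA ranked 162 of 15714 genes in FFPE tumours and 6070 in FFPE controls, and 78 in fresh-frozen tumours and 6120 in fresh-frozen controls. PDGFRA stood above KIT and KDR in every tumour library.

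The 3 pairs of genes were compared within libraries of each group by two-sided exact sign-flip permutation, with adjustment over 12 tests. PDGFRA was above KIT and above KDR in all 11 FFPE tumours (exact permutation adjusted p = 0.00586 for each pair) and in all 6 fresh-frozen tumours (adjusted p = 0.0469 for each). In tumours KIT and KDR did not differ beyond their spread: KIT was the higher in 5 of 11 FFPE tumours (mean log2 ratio of KIT over KDR -0.02 ± 0.70, SD; exact permutation adjusted p = 0.979) and in 4 of 6 fresh-frozen tumours (0.39 ± 0.73, SD; adjusted p = 0.338). In controls PDGFRA and KIT did not differ beyond their spread: PDGFRA was the higher in 3 of 10 FFPE controls (mean log2 ratio of PDGFRA over KIT 0.02 ± 1.63, SD; exact permutation adjusted p = 0.979) and in 1 of 6 fresh-frozen controls (-0.55 ± 0.65, SD; adjusted p = 0.167). PDGFRA was above KDR in 9 of 10 FFPE controls (exact permutation adjusted p = 0.0117) and in all 6 fresh-frozen controls (adjusted p = 0.0469). KIT was above KDR in all 10 FFPE controls (exact permutation adjusted p = 0.00781) and in all 6 fresh-frozen controls (adjusted p = 0.0469, from the smallest p that 6 libraries allow, 0.0312).

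The tumour effects of the 3 genes differed from each other, by ratios within a library that do not depend on scaling between libraries. The log2 ratio of PDGFRA over KIT averaged 4.41 ± 1.11 in FFPE tumours and 0.02 ± 1.63 in FFPE controls (SD), a difference of 4.39 (exact permutation, adjusted over 6 tests, p = 6.80e-05). In fresh-frozen tissue the same ratio averaged 5.32 ± 1.56 in tumours and -0.55 ± 0.65 in controls (SD), a difference of 5.88 (exact permutation adjusted p = 0.00260). The ratio of PDGFRA over KDR was higher in tumours by 2.69 in FFPE tissue (exact permutation adjusted p = 0.000794) and by 3.48 in fresh-frozen tissue (adjusted p = 0.00433). Without dogs 44331 and 61478, the FFPE differences were 5.09 for PDGFRA over KIT and 3.33 for PDGFRA over KDR.

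The log2 ratio of KIT over KDR averaged -0.02 ± 0.70 in FFPE tumours and 1.67 ± 0.64 in FFPE controls (SD), a difference of -1.69 (exact permutation adjusted p = 6.80e-05). It averaged 0.39 ± 0.73 in fresh-frozen tumours and 2.78 ± 0.55 in fresh-frozen controls (SD), a difference of -2.40 (exact permutation adjusted p = 0.00260). Fresh-frozen tumours ran from -0.70 to 1.04 and fresh-frozen controls from 2.21 to 3.70, so this ratio separated the groups in frozen tissue. In FFPE tissue tumours ran from -1.01 to 0.96 and controls from 0.69 to 2.76, with a narrow overlap.

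**Figure D2:**
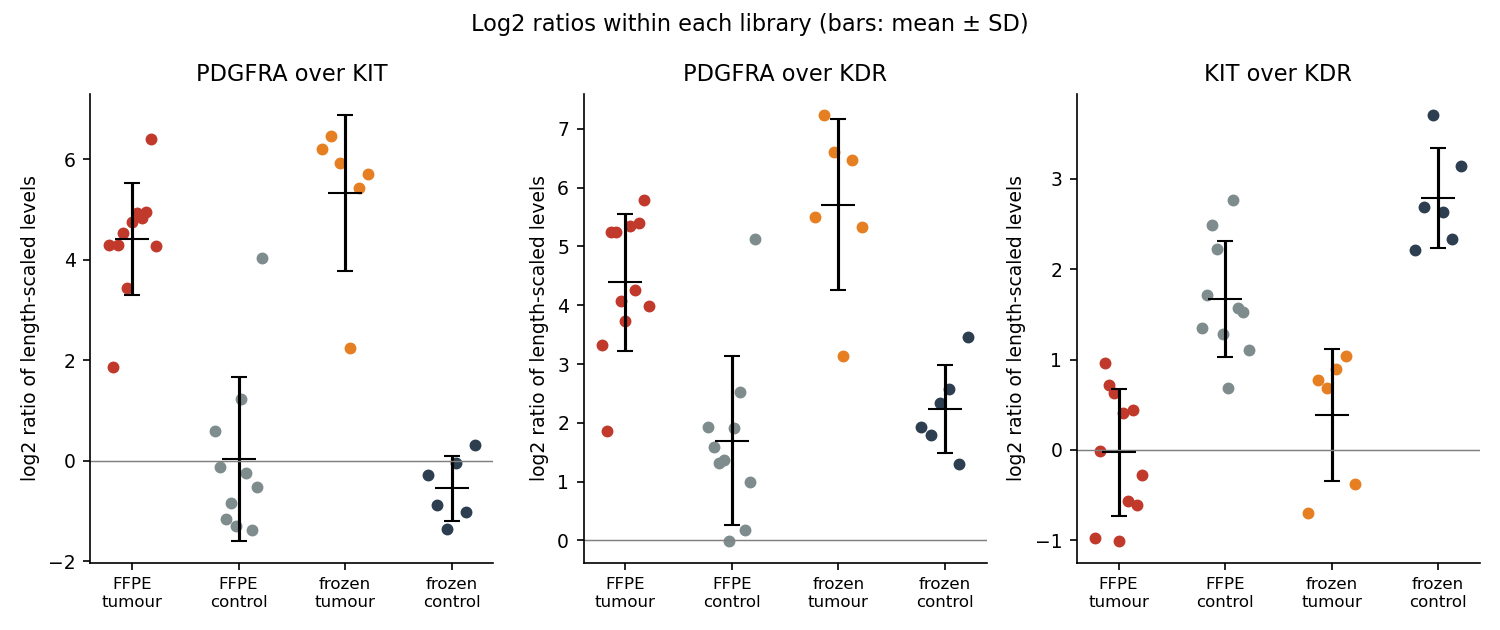
Log2 ratios of exonic-length-scaled levels for the 3 pairs of genes (vertical axes) in each library of the 4 groups, 1 point per library, with bars at the mean ± SD and a line at 0. PDGFRA over KIT and PDGFRA over KDR sit higher, and KIT over KDR sits lower, in tumours than in controls.

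To ask how far an FFPE library stands in for a frozen one, the 8 dogs with both were compared. The fit held a tissue term and did not pair the libraries by dog. None of the 3 genes differed past the threshold, while 2.81% of 17097 genes were called higher in FFPE libraries and 0.135% lower, 2.95% in all. The log2 difference of FFPE over fresh-frozen libraries was -0.49 ± 0.43 for PDGFRA (SE; 95% interval -1.38 to 0.41; edgeR adjusted p = 0.586). It was -0.15 ± 0.23 for KIT (95% interval -0.63 to 0.33; edgeR adjusted p = 0.772) and 0.46 ± 0.32 for KDR (-0.21 to 1.12; adjusted p = 0.480). These unpaired intervals leave room for differences of more than 2-fold for PDGFRA and KDR. With libraries paired by dog the values were -0.36 ± 0.39 for PDGFRA, -0.11 ± 0.20 for KIT and 0.37 ± 0.32 for KDR (SE), and none passed.

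Single dogs differed by much more than these means. The tumour of dog 60636 held 1503 CPM of PDGFRA in its FFPE library and 379 CPM in its fresh-frozen library, 3.97-fold higher in FFPE. The tumours of dogs 60127 (474 CPM in FFPE and 1879 CPM fresh-frozen), 60461 (1623 and 5371 CPM) and 60679 (1030 and 2169 CPM) went the other way, and dog 60749 held 2493 CPM in FFPE and 2333 CPM fresh-frozen. The 3 control dogs were closer, at 72.4 CPM in FFPE and 72.7 CPM fresh-frozen in dog 60126, 37.8 and 42.5 CPM in dog 60460, and 86.8 and 61.9 CPM in dog 60462. Each tumour library, FFPE or fresh-frozen, of the 5 tumour dogs lay above each control library of these 3 dogs for PDGFRA.

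KIT was lower in FFPE than in fresh-frozen libraries in 6 of 8 dogs, with log2 differences of -0.60 to 0.96. KDR was higher in FFPE in 4 of 8 dogs, with 32.3 CPM in FFPE and 8.03 CPM fresh-frozen in control dog 60460, and 42.3 CPM in FFPE and 9.89 CPM fresh-frozen in control dog 60462. In the third control dog, 60126, KDR stood at 12.1 CPM in FFPE and 18.3 CPM fresh-frozen. The FFPE library of dog 60462 held 55 KDR counts.

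**Figure D3:**
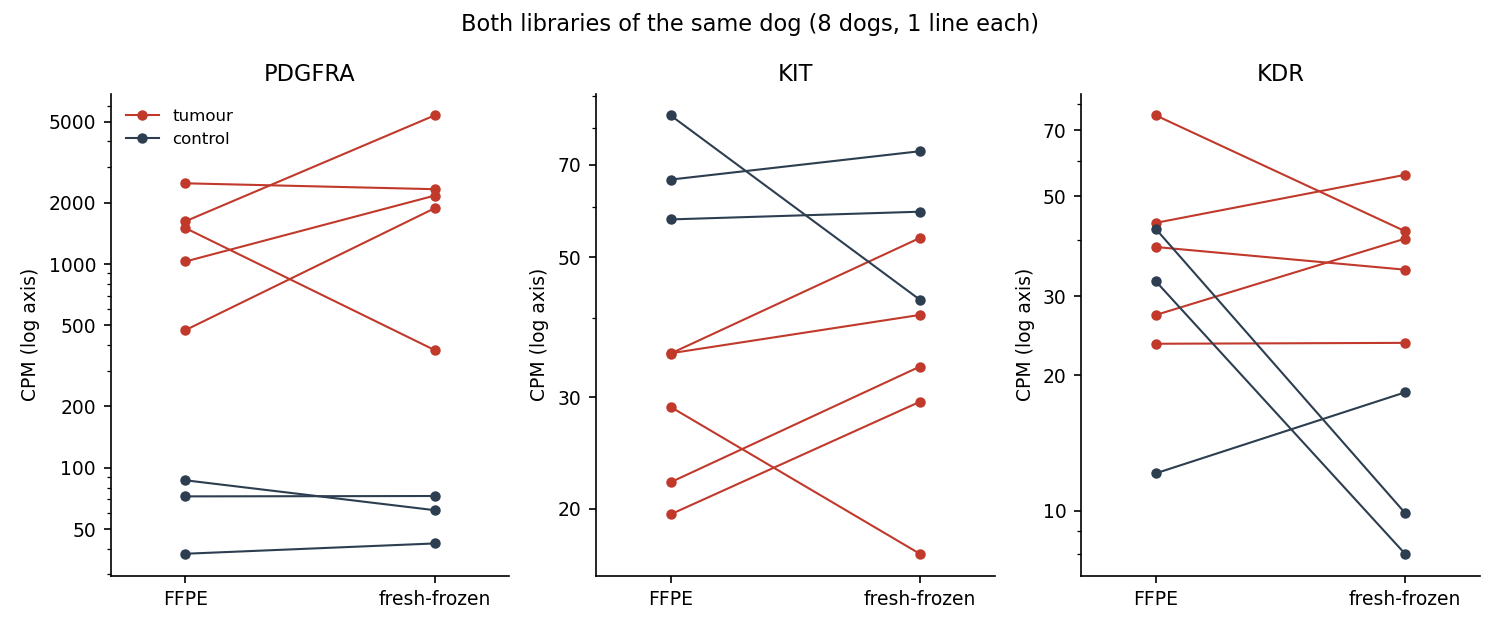
CPM of PDGFRA, KIT and KDR (vertical log axes) in the FFPE and the fresh-frozen library of each of 8 dogs, 1 line per dog. PDGFRA lines of the 5 tumour dogs lie above those of the 3 control dogs at both ends and cross each other, and KDR stands higher at the FFPE end in control dogs 60460 and 60462.

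The tumour effect in FFPE tissue minus that in fresh-frozen tissue was -1.93 ± 0.84 for PDGFRA on the log2 scale (SE; edgeR unadjusted p = 0.0282, adjusted p = 1.00), 0.33 ± 0.35 for KIT and -0.25 ± 0.45 for KDR. No gene passed this test at an adjusted p of 0.05 with edgeR, while 575 of 15714 genes (3.66%) had an unadjusted p under 0.05, and DESeq2 called 1 gene and limma voom 2. Without dog 61478 the PDGFRA difference was -0.77 ± 0.61 (SE), and without dogs 44331 and 61478 it was -0.64 ± 0.53. These fits did not pair the libraries of the 8 dogs that gave both kinds. With the dog as a block, in a fit that also changed the tool to limma voom, the PDGFRA difference was -0.88 ± 0.71 (SE).

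The other genes of chromosome 13 had mostly positive fold changes as well. Among those tested the median log2 fold change was 0.51 in FFPE tissue (257 genes, 68 called higher and 19 lower) and 0.66 in fresh-frozen tissue (285 genes, 101 higher and 29 lower). The medians over all tested genes were 0.02 and 0.10. In FFPE tissue 1 other chromosome 13 gene had a higher fold change than PDGFRA, and 2 did in fresh-frozen tissue. KIT lay near the low end, with 44 of 257 genes below it in FFPE tissue and 42 of 285 in fresh-frozen tissue.

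Each gene was next set against the median of the other chromosome 13 genes in the same library. Relative to it, PDGFRA was higher in tumours by 3.24 log2 units in FFPE tissue (exact permutation, adjusted over 6 tests, p = 0.000170) and by 4.35 in fresh-frozen tissue (adjusted p = 0.00433). KIT was lower in tumours by 1.14 log2 units in FFPE tissue (a tumour minus control value of -1.14; exact permutation adjusted p = 0.000170), and the fresh-frozen value was -1.52 (adjusted p = 0.00649). For KDR the values were 0.55 in FFPE tissue (exact permutation adjusted p = 0.0799), which did not pass, and 0.88 in fresh-frozen tissue (adjusted p = 0.0416). The fresh-frozen KDR value did not pass without tumour dog 60636, at 0.73 (exact permutation adjusted p = 0.0779).

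Closer to the genes, 31 other rows start between 45.5 and 48.6 Mb, and 16 of them were tested in both tissues. Of the 16, 3 passed as higher and 1 as lower in FFPE tissue, with a median log2 fold change of 0.70. In frozen tissue 11 passed as higher and 1 as lower, with a median of 1.38. No tested row lies between PDGFRA and KDR apart from KIT. The nearest tested row below PDGFRA ends 123 kb away, with log2 fold changes of 1.40 ± 0.40 in FFPE tissue (SE; edgeR adjusted p = 0.0181) and 1.75 ± 0.44 in fresh-frozen tissue (adjusted p = 0.0122). The nearest tested row above KDR starts 143 kb away, with 0.49 ± 0.33 in FFPE tissue (edgeR adjusted p = 0.284) and 1.48 ± 0.39 in fresh-frozen tissue (adjusted p = 0.0151). KIT thus lay below both of its nearest tested neighbours, PDGFRA and KDR, whose fold changes were positive in both tissues.

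**Figure D4:**
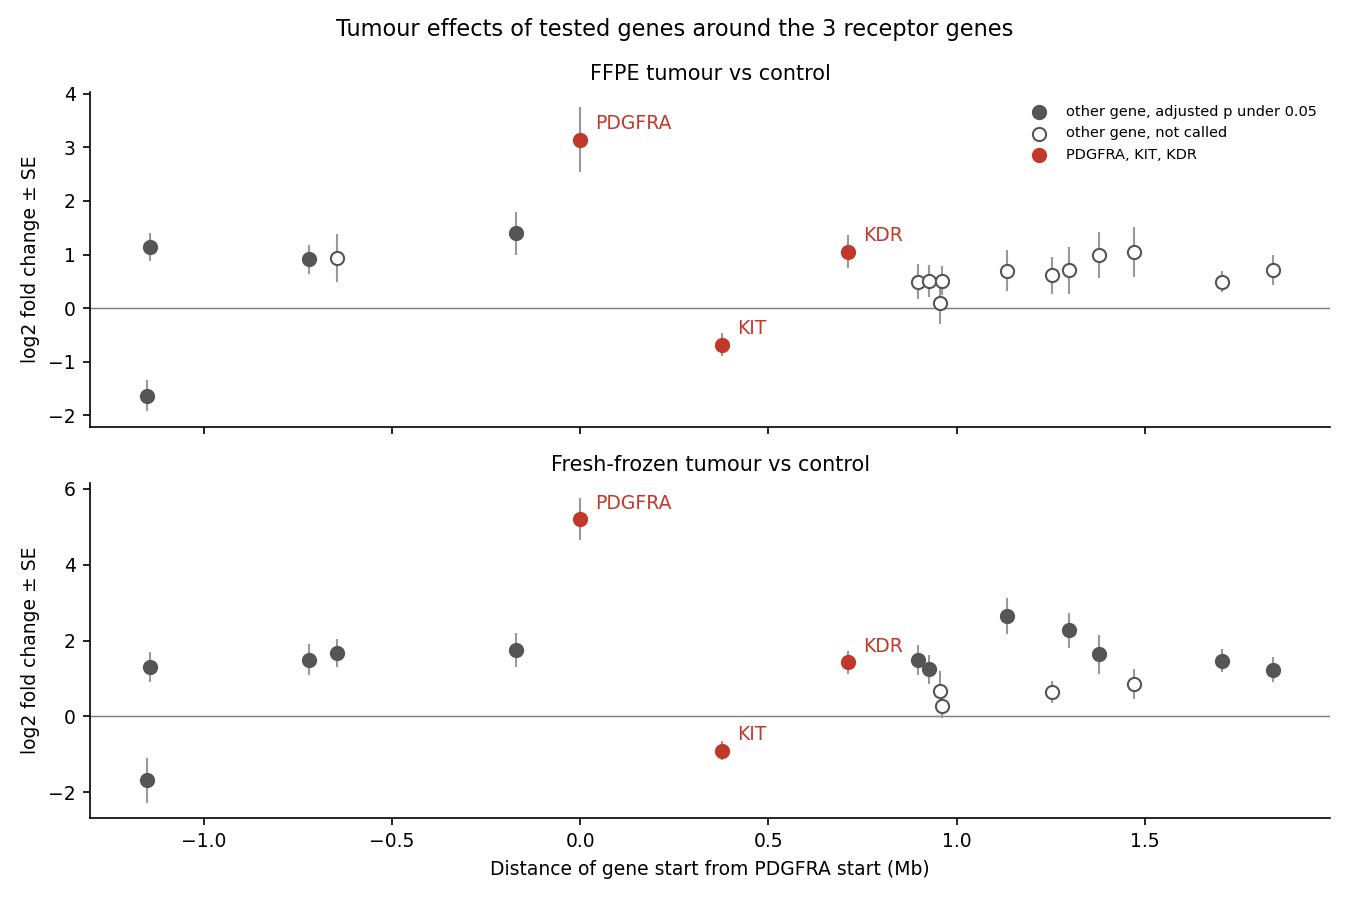
Log2 fold change of tumour over control ± SE (vertical axis) for PDGFRA, KIT, KDR and the 16 other tested genes around them, by distance of the gene start from the PDGFRA start in Mb, in FFPE tissue (top) and fresh-frozen tissue (bottom). Filled grey points had an edgeR adjusted p under 0.05 and open points did not; PDGFRA stands highest in both panels (3.15 and 5.21) and KIT lies below 0 (-0.68 and -0.91).

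The chromosome 13 shift of a library was taken as the median over its other tested chromosome 13 genes, centred between the group means, minus the same median over all genes. It ran from -0.37 to 0.84 in FFPE tumours (median 0.27) against -0.38 to 0.16 in FFPE controls (median -0.22), and from -0.18 to 0.82 in fresh-frozen tumours (median 0.15) against -0.34 to -0.15 in fresh-frozen controls (median -0.25). Dog 44331 had the lowest shift among FFPE tumours, at -0.37, and dog 61478 the highest among FFPE controls, at 0.16, the same libraries that stood apart in PDGFRA. The tumour of dog 60636 had a shift of 0.45 in its FFPE library and -0.18 in its fresh-frozen library.

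Across the 11 FFPE tumours, PDGFRA correlated with this shift (Pearson r = 0.84, permutation p = 0.000250, adjusted over 6 relations p = 0.00150; Spearman rho = 0.78, permutation p = 0.00647, adjusted p = 0.0388). Without dogs 44331 and 60749, the farthest from the median shift, r was 0.67 over 9 tumours (permutation p = 0.0466). In the 6 FFPE tumours of dogs with no frozen library r was 0.90 (exact permutation p = 0.0194; rho = 0.71, p = 0.136), and none is given for the 5 others, since each r was taken over at least 6 libraries to begin with. In the 6 fresh-frozen tumours r was 0.67 (exact permutation p = 0.0819, adjusted p = 0.246) and rho was 0.89 (p = 0.0333, adjusted p = 0.10), which did not pass. For KIT and KDR the relation did not pass in either tissue, with r of 0.46 and 0.39 in FFPE tumours (permutation adjusted p of 0.301 and 0.367) and 0.03 and 0.35 in fresh-frozen tumours (exact permutation adjusted p of 0.964 and 0.562). The KIT value in FFPE tumours was r = 0.90 over 9 tumours without dogs 44331 and 60749 (permutation p = 0.00115, not adjusted), so it depended on which tumours were in. The library score, taken with chromosome 13 left out, was also highest in FFPE tumour dog 60749 (2.35) and lowest in dog 44331 (-0.65). These dogs had the highest and lowest shift, and FFPE tumours with a higher shift mostly had a higher score. Dog 50416 had a shift of 0.68 and a score of 2.00, and dog 60127 had -0.01 and -0.22. The order was not strict, as dog 60461 had a shift of 0.27 and a score of 0.29, and dog 60177 had 0.14 and 1.21. The correlation of the score with the shift or with PDGFRA was not taken. Whether the relation of PDGFRA to the shift is particular to chromosome 13 was not tested.

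**Figure D5:**
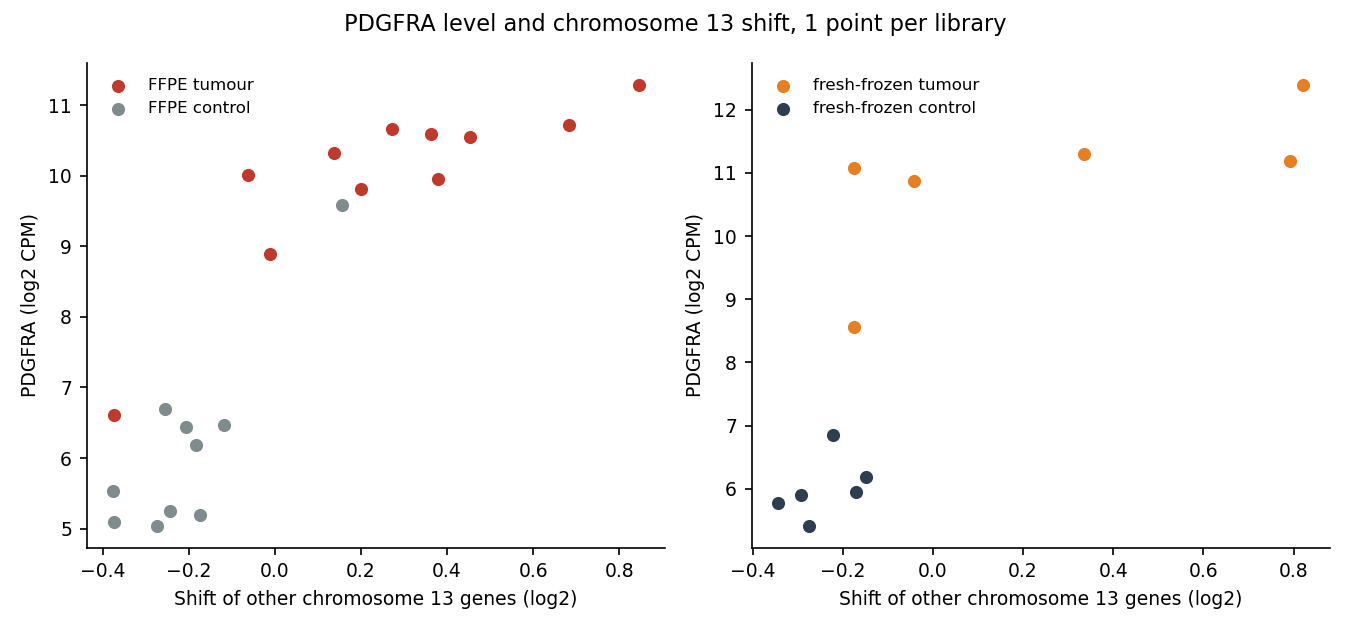
PDGFRA level in log2 CPM (vertical axis) against the shift of the other chromosome 13 genes on the log2 scale (horizontal axis) in FFPE libraries (left) and fresh-frozen libraries (right), 1 point per library. In FFPE tissue 1 tumour (dog 44331, shift -0.37) lies among the controls and 1 control (dog 61478, shift 0.16) lies among the tumours.

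In every group other than fresh-frozen controls, 1 library set most of the spread of PDGFRA. Its SD on the log2 CPM scale was 1.27 in FFPE tumours, larger than that of 86.5% of tested genes, and 0.65 without dog 44331, larger than that of 44.4%. In FFPE controls it was 1.36, and 0.67 without dog 61478. In fresh-frozen tumours it was 1.26, larger than that of 86.8% of tested genes, and 0.59 without dog 60636, larger than that of 47.4%. In fresh-frozen controls it was 0.48. The library left out was each time the one farthest out for PDGFRA, and the other genes lost that same library. A fall in the SD of PDGFRA and in its place among genes was therefore partly built in. KIT had SDs of 0.50 in FFPE tumours and 0.51 in FFPE controls, and 0.56 in fresh-frozen tumours and 0.31 in fresh-frozen controls. KDR had SDs of 0.70 and 0.67 in FFPE tumours and controls, and 0.47 and 0.57 in fresh-frozen tumours and controls.

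The levels of the 3 genes were not shown to move together from library to library within a group. None of 12 relations (3 pairs in 4 groups) passed, with permutation adjusted p-values of at least 0.710 for r. The largest r was 0.50, between PDGFRA and KIT in FFPE tumours (permutation p = 0.126; rho = 0.51), and it was -0.01 without dogs 44331 and 60127. By the likeness of their deviations from the group means over all 33 libraries, among 11860 genes, the gene most like PDGFRA lay at chr13:52909684-53538625 (28 exons, r = 0.85). The gene most like KDR lay at chr13:49138402-49207394 (6 exons, r = 0.78), and that most like KIT at chr21:26220963-26336020 (34 exons, r = 0.66). By the same measure PDGFRA and KIT had an r of -0.05, PDGFRA and KDR 0.18, and KIT and KDR 0.31. The r with each most-like gene was picked as the highest of 11860, and 8 dogs entered with both of their libraries.

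Boxers and French Bulldogs were compared among FFPE libraries, and none of 6 tests passed, the lowest exact permutation adjusted p being 0.429. PDGFRA stood at 903 to 1687 CPM in tumours of 4 Boxers and 97.1 to 2493 CPM in tumours of 6 French Bulldogs. In controls it stood at 36.6 to 768 CPM in 4 Boxers, of which dog 61478 is 1, and at 32.7 to 86.8 CPM in 5 French Bulldogs. With these numbers the smallest p that the exact test allows is 0.00476 in tumours and 0.00794 in controls.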

How the data were processed

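The authors deposited raw counts of read pairs per gene, made with featureCounts 1.6.0 on the forward strand with mapping quality of at least 10, per the file headers. Gene models were those of Ensembl release 100 on CanFam3.1, per the file headers. The submitters' processing notes also name fastp and STAR, without versions. No source used here says whether the molecular identifiers of the kit (12 nt, per the labels' protocols) were used to remove amplified copies. The table has 0 sample columns outside the labelled samples, and each column was matched to its sample by the dog number and tissue in its name.

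Members, lists and tests were chosen with earlier results of these data known. Named genes were the members, their nearest tested neighbours and the 1 gene most like each. The lists of pathway genes and of cell type markers were not used here, since 0 identifiers matched the RefSeq table, and no sequences were at hand. Libraries of a group differed from each other by more than counting noise (chi-square of at least 17.2 per degree of freedom in 130 pairs). The labels name separate dogs, so the spread covers animals and tissue handling together.

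Counts were fitted over all genes with edgeR 4.0.16 in R 4.3.3 (filterByExpr, TMM, robust quasi-likelihood F tests), and p-values were adjusted by Benjamini-Hochberg with a threshold of 0.05. The fits were tumour over control for each preservation, FFPE over fresh-frozen in 8 dogs with a tissue term, and the interaction in 33 libraries. Displayed CPM used TMM factors over 33 libraries, and log2 CPM a prior count of 2. Single values were compared by two-sided exact permutation in Python 3.11.15 with SciPy 1.17.1, and correlations in the larger groups used 100000 resamples. Alternatives were other scaling, filters, covariates and libraries, DESeq2 1.42.0 and voom of limma 3.58.1. Scripts were tested on simulated data. Dog numbers name the animal; deviations from group means correlated above 0.1 between the 2 libraries of 7 of 8 dogs (0.08 to 0.74, dog 60636 lowest).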

Additional observations from a re-analysis of the deposited data

Results flagged for a closer look

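The 3 levels and the 3 ratios were examined in the 3 groups with 4 to 10 libraries, 18 cases in all, and not in the 11 FFPE tumours. In these cases 4 values stood far from the rest of their group, where chance gives such a value in about 1 of 20 groups. The 18 cases were not independent, since the ratios are made from the same levels, so the 4 values cannot be set against that rate. The library labelled FFPE control of dog 61478 gave 3 of them, all of which hold its PDGFRA level. Its PDGFRA level was 9.59 on the log2 CPM scale, and the next control stood at 6.70. Its log2 ratio of PDGFRA over KIT was 4.02, with the next control at 1.22, and its ratio of PDGFRA over KDR was 5.13, with the next at 2.52. Its KIT level (31.4 CPM) and KDR level (21.1 CPM) lay within the range of the other controls, and its chromosome 13 shift of 0.16 was the highest of the controls. The fresh-frozen tumour of dog 60636 gave the other value, a log2 ratio of PDGFRA over KIT of 2.23, with the next tumour at 5.42. The FFPE library of the same dog held 3.97 times as much PDGFRA CPM, and the 2 libraries of this dog correlated least of the 8 pairs (r = 0.08 across genes). Among the FFPE tumours, which were outside this search, dog 44331 had a PDGFRA level of 6.60 on the log2 CPM scale, with the next tumour at 8.89. What lies behind these values was not tested.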

How the results depend on the processing

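Apart from single libraries left out, 182 of 201 alternative values kept their direction and their side of the threshold, as did 124 of 132 with a library left out. Both counts include results that had not passed, for which keeping the side meant not passing again. Of the tumour calls in FFPE tissue, PDGFRA kept 15 of 16 alternatives, KIT 9 of 16 and KDR 12 of 16. In fresh-frozen tissue PDGFRA kept 13 of 13, KIT 11 of 13 and KDR 12 of 13. PDGFRA in FFPE tissue was 4.38 (adjusted p = 0.0736) in dogs that also gave a fresh-frozen library. FFPE KIT was -0.63 without a filter, -0.44 thinned to the shallowest library, -0.93 with age, -0.80 in libraries with a stated age, -0.67 without grade II tumours, -0.24 in dogs with no frozen library and -1.34 in those with one. FFPE KDR was 1.07 thinned, 0.96 with age, 1.03 with a stated age and 0.48 in dogs with a frozen library. Fresh-frozen KIT was -0.79 with age and -0.84 with a stated age, and KDR was 1.33 without 4 dogs. For FFPE against fresh-frozen libraries, KIT turned to 0.062 with voom and 0.046 when thinned. The KIT interaction turned to -0.53 in the 8 dogs. Boxer minus French Bulldog for PDGFRA in FFPE tumours was 0.40, and -0.26 without dogs 44331 and 61478.

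Genes called in FFPE tissue (2819) were 4256 with DESeq2, 5054 with voom, 109 thinned, 103 with age, 614 with a stated age, 1250 in dogs with no frozen library and 1 in those with one. In fresh-frozen tissue (4597) they were 2919 with breed, 581 with age, 2108 with a stated age and 2291 without 4 dogs. Between preservations (504) they were 1303 with DESeq2 and 18 thinned. For the interaction (0) they were 1 with DESeq2, 2 with voom and 2 thinned. The cause of these changes was not tested, but fewer libraries or counts entered the thinned fits and the subsets.

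With 1 library left out, FFPE fold changes ran from 3.03 to 4.29 for PDGFRA, -0.77 to -0.55 for KIT and 0.94 to 1.20 for KDR. Fresh-frozen values ran from 4.73 to 5.41 for PDGFRA, -1.14 to -0.77 for KIT and 1.20 to 1.52 for KDR. Genes called between preservations ran from 165 without dog 60679 to 773 without dog 60749. KDR relative to chromosome 13 was 0.73 without dog 60636. With the replicate block, pairing libraries by dog, FFPE over fresh-frozen values were -0.36 for PDGFRA, -0.11 for KIT and 0.37 for KDR. Genes called between preservations went from 504 to 655 with the block. The PDGFRA interaction was -0.88, and the block changed no call of the 3 genes. The interaction with the block was fitted with voom in place of edgeR, and voom with quality weights and no block gave -0.54 against -1.93 with edgeR, so the part of the block cannot be told apart from that of the tool. Without the shallowest library, which held 10 KIT and 9 KDR counts, FFPE KIT was -0.71 and KDR 1.10, and both calls were kept.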
